A study of Sus scrofa with 8 samples.

Results

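The genes described here are 10 components of bone morphogenetic protein (BMP) signaling, namely the ligand genes BMP2, BMP4 and BMP7, the receptor genes BMPR1A and BMPR2, the signal transducer genes SMAD1 and SMAD5, and the target genes ID1, ID2 and ID3. They were found by symbol, by taking from the deposited count table each identifier that bears one of these names among the pig Ensembl gene names. All 10 symbols had an identifier among the 24358 genes of the table, and 9 of the 10 passed the filter on low counts and were tested. BMPs are secreted dimers that bring type I and type II receptors together at the cell surface. The type I receptor then phosphorylates SMAD1, SMAD5 and SMAD9, which join SMAD4, enter the nucleus and switch on target genes, the ID genes foremost among them. ID proteins cannot bind DNA themselves and hold E proteins away from it. In mouse embryonic stem cells BMP4 works together with LIF to hold back differentiation, whereas in human pluripotent cells BMP4 drives differentiation, often towards trophoblast.

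RNA-seq was performed on DOX-hLIF-2i piPSCs, which are pig induced pluripotent stem cells. They were made from embryonic fibroblasts that carried an OCT4-tdTomato reporter. The piPSCs were induced with lentiviral, doxycycline-inducible OSKM factors (OCT4, SOX2, KLF4 and MYC), on which they still relied. According to the methods, these cells were kept in N2/B27 medium with human and porcine LIF, doxycycline, and the inhibitors CHIR99021 (of GSK3) and PD0325901 (of MEK). The IRF-1 overexpressing cells (2 libraries, replicates 1 and 3) had received PB-CAG-IRF1-Flag, a transposon vector in which the constitutive CAG promoter drives Flag-tagged IRF1, an interferon-responsive transcription factor. The control cells (2 libraries, replicates 6 and 8) had received PB-CAG-Flag without the insert, and puromycin selection and removal of feeder cells were common to both groups. The sample labels give the genotype as overexpression for all 4 libraries and name LCDMV as the culture system, so the assignment to groups rests on the legend of the study's map of these samples, and the medium on its methods. The question of the comparison was how IRF-1 affects RNA expression in these cells.

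The library totals were 24923319 and 20858333 counts in IRF-1 overexpressing replicates 1 and 3, and 15925429 and 17097669 counts in control replicates 6 and 8. Levels are given as CPM, which scales counts by the library total and its TMM factor. A count of 3, taken as the floor, was worth between 0.121 and 0.192 CPM. IRF1 served to check the labels, and its counts were 8206 and 5485 with overexpression and 55 and 56 in the controls. Both overexpressing libraries lay far above both controls, with a log2 fold change of 6.46 (SE 0.21, adjusted p = 3.65e-05 in edgeR's quasi-likelihood test), and reads of the inserted sequence and of the resident gene cannot be told apart. Nothing in the labels or methods says that the replicates of a group were separate cultures, so the p-values measure only the spread between these libraries, which may be technical. These are bulk samples, in which fewer cells of a type and less RNA per cell cannot be told apart.

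A gene was called when its adjusted p was under 0.05 (Benjamini-Hochberg, over 13250 genes tested with edgeR) and its log2 fold change was at least 1 in size. Of the 9 tested members, 1 was called higher in the overexpressing cells (SMAD1), where 8.61% of all tested genes were, and 4 were called lower (BMP2, BMP7, ID2 and ID3), where 10.6% were. With no minimum on the fold change, the same 1 and 4 members passed, against 13.9% of all tested genes that were higher and 15.5% that were lower by that rule. In CPM, both overexpressing libraries lay above both controls for 1 of the 9 members and below both for 6, and among all tested genes these shares were 34.8% and 33.8%. SMAD1 and the target genes ID2 and ID3 were thus called in opposite directions, while the receptor genes BMPR1A and BMPR2, the ligand gene BMP4 and SMAD5 were not called.

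**Figure D1:**
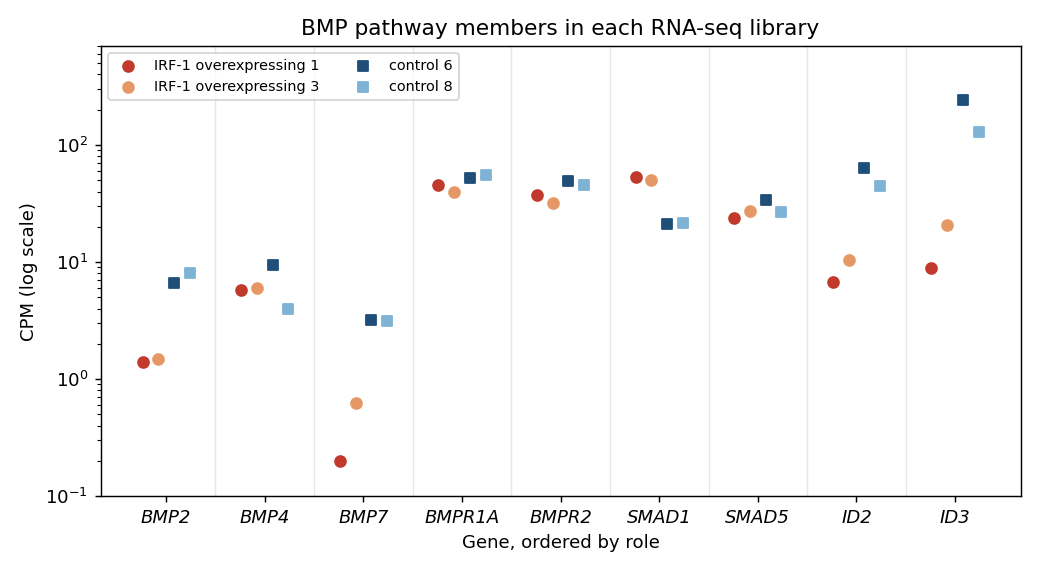
CPM on a log axis of the 9 tested members in each of the 4 libraries, with 1 point per library (circles for IRF-1 overexpressing replicates 1 and 3, squares for control replicates 6 and 8) and genes ordered by role. SMAD1 is the member with both circles above both squares, while ID3 goes from 8.81 and 20.7 CPM in the circles to 241 and 128 CPM in the squares.

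Among the ligand genes, BMP2 (ENSSSCG00000039442, plus strand of chromosome 17 of Sscrofa11.1, 15749836 to 15761194) encodes a ligand that acts through BMPR1A and BMPR2. It had 35 and 31 counts in overexpressing replicates 1 and 3, or 1.41 and 1.49 CPM, against 104 and 141 counts, or 6.65 and 8.06 CPM, in control replicates 6 and 8. The groups did not overlap, and BMP2 fell with a log2 fold change of -2.34 (SE 0.34, adjusted p = 0.00236 in edgeR). BMP7 (ENSSSCG00000007501, minus strand of chromosome 17, 57584952 to 57676359), a ligand known from kidney and eye development, had 5 and 13 counts against 50 and 55, which is 0.201 and 0.625 CPM against 3.20 and 3.14 CPM. The controls were nearly equal and the overexpressing replicates lay below them but apart from each other. Its log2 fold change was -2.96 (SE 0.56, adjusted p = 0.00721 in edgeR). It was -2.33 and no longer called without overexpressing replicate 1, and -3.94 without overexpressing replicate 3.

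BMP4 (ENSSSCG00000005045, minus strand of chromosome 1, 183413653 to 183422839), the ligand most used in stem cell culture, had 143 and 125 counts in the overexpressing replicates and 147 and 69 in the controls. In CPM these were 5.75 and 6.01 against 9.40 and 3.94, so the overexpressing libraries lay between the controls, which differed from each other more than from them. BMP4 was not called, with a log2 fold change of -0.18 (SE 0.42, adjusted p = 0.784 in edgeR), and the sign turned to 0.58 when control replicate 6 was left out.

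Of 21 BMP and GDF ligand genes listed, 18 had an identifier, 9 were tested, 1 was called higher and 5 lower (against 8.61% and 10.6% of all tested genes), with a median log2 fold change of -2.02 against -0.0016 over all genes tested. BMP6 (ENSSSCG00000001027), which signals to liver cells in iron balance, was the one called higher. Its counts were 96 and 43 with overexpression and 4 in either control (log2 fold change 3.59, SE 0.58, adjusted p = 0.00371 in edgeR). Its exons share 1255 of 4968 bases with TXNDC5 on the opposite strand, which had 2369, 1914, 1609 and 1225 counts in overexpressing replicates 1 and 3 and control replicates 6 and 8, so the reads of these bases are uncertain. BMP5, a ligand of skeletal development, stood at 2.66 and 4.28 CPM in the overexpressing libraries against 15.0 and 13.1 CPM in the controls, and GDF6, a ligand of joint and eye development, at 1.81 and 2.11 CPM against 10.4 and 7.31 CPM. Both were called lower in the overexpressing cells, with log2 fold changes of -2.02 and -2.17. GDF15, a distant relative that is secreted under stress and signals through another receptor, had 33 and 75 counts against 323 and 279. Its log2 fold change was -2.91 (SE 0.44, adjusted p = 0.00293 in edgeR) and -3.78 without overexpressing replicate 3. GDF9, an oocyte ligand, passed on its p but not on its size, at 11.6 and 11.2 CPM against 6.08 and 6.23 CPM (log2 fold change 0.89). With any 1 library left out, GDF9 no longer passed on its p, at log2 fold changes of 0.87 to 0.92. Of its 4978 exon bases, 361 are shared with UQCRQ. GDF11 stood at 19.7 and 17.1 CPM against 14.9 and 13.0 CPM and was not called, and 2344 of its 4387 exon bases are shared with SARNP on the opposite strand. The remaining 9 ligand genes were not tested. Of these, 7 had no more than 3 counts in each of the 4 libraries, 4 of them (BMP10, BMP15, GDF2 and MSTN) with no count at all.

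Among the receptor genes, BMPR1A (ENSSSCG00000010360, plus strand of chromosome 14, 87743388 to 87891780), the type I receptor of BMP2 and BMP4, had 45.2 and 39.6 CPM in overexpressing replicates 1 and 3 and 52.5 and 54.9 CPM in the controls. BMPR2 (ENSSSCG00000016113, plus strand of chromosome 15, 105970321 to 106139772), the type II receptor, had 37.3 and 31.7 CPM against 49.2 and 45.4 CPM. For both genes the overexpressing libraries lay below the controls, as they did for 33.8% of all tested genes. Neither passed the test, with log2 fold changes of -0.34 (SE 0.15, adjusted p = 0.129 in edgeR) and -0.45 (SE 0.16, adjusted p = 0.0713 in edgeR).

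In the list of 11 BMP receptors and coreceptors, 10 were tested and 2 were called lower (against 10.6% of all tested genes), with a median log2 fold change of -0.18. ACVRL1 (ENSSSCG00000000232), the type I receptor of endothelial cells, had 10 and 8 counts with overexpression and 88 and 107 without. The groups lay far apart, with a log2 fold change of -3.88 (SE 0.41, adjusted p = 0.000803 in edgeR). RGMA (ENSSSCG00000002267), a coreceptor anchored in the membrane that strengthens BMP binding, stood at 126 and 214 CPM against 618 and 432 CPM. It fell by 1.62 on the log2 scale (SE 0.27, adjusted p = 0.00424 in edgeR), and the related RGMB stood at 14.3 and 14.4 CPM against 19.1 and 15.5 CPM and was not called. The type I receptor gene BMPR1B had 386 and 244 counts against 94 and 161, or 15.5 and 11.7 CPM against 6.01 and 9.20 CPM. It missed the threshold (log2 fold change 0.84, adjusted p = 0.0695 in edgeR) and passed it at 1.19 without control replicate 8. The remaining tested receptors, ACVR1, ACVR2A, ACVR2B and ENG, had log2 fold changes between -0.09 and 0.44, and HJV had no count. ACVR2A shares 2284 of 6058 exon bases with ORC4, and ENG shares 921 of 6926 with FPGS.

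SMAD1 (ENSSSCG00000009040, minus strand of chromosome 8, 82907994 to 82988048) had 1333 and 1047 counts in overexpressing replicates 1 and 3 and 327 and 378 in control replicates 6 and 8. In CPM this was 53.6 and 50.3 against 20.9 and 21.6, so the replicates of each group lay close together and the groups far apart. SMAD1 rose with a log2 fold change of 1.29 (SE 0.16, adjusted p = 0.00119 in edgeR), and the value stayed between 1.25 and 1.33 when any 1 library was dropped. The size was close to the limit of 1, and a test of whether the change exceeded that limit (glmTreat) gave an adjusted p of 0.116, where the 14 alternatives together gave between 2.73e-08 and 0.116. SMAD5 (ENSSSCG00000014319, plus strand of chromosome 2, 138287431 to 138344762), which does the same work as SMAD1 in the pathway, had 590 and 567 counts against 524 and 465. Its CPM values of 23.7 and 27.2 against 33.5 and 26.6 overlapped, and it was not called (log2 fold change -0.24, SE 0.19, adjusted p = 0.394 in edgeR). The exons of SMAD5 share 49 of 8699 bases with an unnamed gene that had no counts.

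The ratio of SMAD1 to SMAD5, taken as counts per kb of exon within each library, does not depend on how libraries are scaled. It was 4.95 and 4.05 in the overexpressing replicates and 1.37 and 1.78 in the controls. The ratio was thus higher in both overexpressing libraries, by 1.52 on the log2 scale, with p = 0.333 in a two-sided exact permutation test, which is the smallest p that 2 against 2 libraries allow. Against SMAD4, the partner that all these SMADs share, the ratio of SMAD1 was 1.73 and 1.47 with overexpression and 0.564 and 0.57 without.

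Of the 8 SMAD genes, all were tested and SMAD1 was the 1 called, where 8.61% of all tested genes were called higher, with a median log2 fold change of 0.27. SMAD9, the remaining BMP transducer, had 269 and 147 counts against 67 and 87. Both overexpressing libraries lay above both controls, but it was not called (log2 fold change 0.95, SE 0.32, adjusted p = 0.06 in edgeR). SMAD3, which carries the signal of activin and TGF-beta instead, stood at 50.4 and 46.8 CPM against 31.6 and 26.7 CPM and passed on its p but not on its size (log2 fold change 0.74, adjusted p = 0.0131 in edgeR). SMAD2, which shares that task, was at 51.4 and 49.6 CPM against 60.8 and 68.6 CPM and was not called. SMAD4 stood at 73.0 and 80.2 CPM against 87.2 and 89.0 CPM and was not called either, and 242 of its 9327 exon bases are shared with ELAC1. In CPM, SMAD1, SMAD9 and SMAD3 lay higher in both overexpressing libraries, as 34.8% of all tested genes did, while SMAD5 and SMAD2 did not. Without overexpressing replicate 1, the log2 fold changes of SMAD9 and SMAD3 were 0.61 and 0.69, and SMAD3 no longer passed on its p.

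ID2 and ID3 went the opposite way from SMAD1. ID2 (ENSSSCG00000008645, minus strand of chromosome 3, 127499410 to 127503297) had 169 and 216 counts in overexpressing replicates 1 and 3 and 996 and 775 in control replicates 6 and 8, or 6.80 and 10.4 CPM against 63.7 and 44.3 CPM. Every overexpressing library lay well below every control, and ID2 fell by 2.66 on the log2 scale (SE 0.27, adjusted p = 0.000703 in edgeR). ID3 (ENSSSCG00000039514, minus strand of chromosome 6, 81422546 to 81424169) had 219 and 431 counts against 3772 and 2235, which is 8.81 and 20.7 CPM against 241 and 128 CPM. The libraries of each group differed from each other, but both overexpressing ones lay far below both controls. ID3 fell by 3.65 on the log2 scale (SE 0.45, adjusted p = 0.00123 in edgeR), and leaving out overexpressing replicate 3 gave -4.39.

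ID1 (ENSSSCG00000037016, plus strand of chromosome 17, 35316620 to 35322100) had 2 counts in control replicate 6 and no count in the other libraries, so it was under the floor in all 4 and no fold change is given. Of its 5254 listed exon bases, 1994 are shared with BCL2L1 on the opposite strand, a gene with 728 and 750 counts in the overexpressing replicates and 1961 and 1345 in the controls. The strand setting and the treatment of reads on shared bases are not given in the sources used here, and whether reads of ID1 were left uncounted for this reason was not tested.

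The list of 17 BMP response genes includes ID1, ID2 and ID3. It had 14 tested, of which 2 were called higher and 6 lower (against 8.61% and 10.6% of all tested genes), with a median log2 fold change of -0.62. ID4 had 107 and 168 counts against 1311 and 481, so the controls differed widely but stayed above both overexpressing libraries. Its log2 fold change was -3.18 (SE 0.53, adjusted p = 0.00432 in edgeR), with -2.16 without control replicate 6 and -3.76 without control replicate 8. MSX1 (ENSSSCG00000008727), a homeobox gene of limb and craniofacial tissue, stood at 6.96 and 17.2 CPM against 117 and 116 CPM. It fell by 3.29 on the log2 scale (SE 0.37, adjusted p = 0.000927 in edgeR), and leaving out overexpressing replicate 3 gave -4.07. The related MSX2 had 39 and 30 counts against 88 and 76 and was called lower at -1.72, but no longer without overexpressing replicate 1 (-1.78) or 3 (-1.66). ATOH8 was thinly counted, at 9 and 16 against 22 and 55, and its log2 fold change of -2.02 was -2.64 without overexpressing replicate 3. Its call was lost without overexpressing replicate 1 (-1.56) or control replicate 8 (-1.32).

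The 2 response genes called higher were HEY1 and BAMBI. HEY1 (ENSSSCG00000006159), a repressor that also answers to Notch, had 446 and 254 counts against 74 and 21, or 17.9 and 12.2 CPM against 4.73 and 1.20 CPM. Its log2 fold change was 2.36 (SE 0.55, adjusted p = 0.0154 in edgeR). It was 3.65 without control replicate 6, 1.68 without control replicate 8, and 2.05 and no longer called without overexpressing replicate 1. BAMBI is described with the inhibitors. Of the genes not called, GATA2 and GATA3, which BMP switches on in trophoblast and surface ectoderm, overlapped between the groups, with log2 fold changes of -0.05 and 0.07. The value of GATA2 was -0.72 without overexpressing replicate 1 and 0.52 without control replicate 6, and it shares 325 of 6063 exon bases with EEFSEC. DLX5 was at 60 and 52 counts against 9 and 36. Its log2 fold change of 0.88 became 2.09, past the threshold, without control replicate 8 and 0.25 without control replicate 6. DLX3 had at most 6 counts in a library. HAMP had no count, and 2081 of its 2104 exon bases are shared with USF2.

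Marker lists show which cell types the libraries may hold. In the list of 12 trophoblast markers, 8 were tested, 1 was called higher and 5 lower (against 8.61% and 10.6% of all tested genes), and the summed level was 319 and 1173 CPM in overexpressing replicates 1 and 3 and 15682 and 9620 CPM in control replicates 6 and 8. Most of this sum was KRT8, the gene of the list with the highest CPM, and KRT18, the keratins of simple epithelia. KRT8 stood at 250 and 1014 CPM against 12008 and 7485 CPM, and KRT18 at 13.8 and 88.5 CPM against 3544 and 2034 CPM. Overexpressing replicate 3 lay nearer to the controls than replicate 1 for both keratins, as it did for ID2 and ID3. The same order held for BMP7, MSX1, FST, GDF15, RGMA and CDH1, but not for ACVRL1 or MSX2. It is thus not particular to the keratins and ID genes, and its share over all tested genes was not counted. The log2 fold change of KRT8 was -3.95, -3.26 without overexpressing replicate 1 and -5.29 without replicate 3, and that of KRT18 was -5.77, -4.97 and -7.66. TFAP2C, TEAD4 and DAB2 were called lower too (log2 fold changes -2.82, -2.68 and -3.09), while TFAP2A was called higher at 3.72. DAB2 shares 1682 of its 7817 exon bases with C9, which had at most 1 count. The defining trophoblast genes CDX2 and HAND1 had no count in any library, and KRT7 had 2 counts in control replicate 6 alone. The part of these cells or genes in the fall of the ID genes was not tested.

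The remaining marker lists check the labelled cell type. Of 12 pluripotent cell markers, 5 had an identifier, and POU5F1 and SOX2 were among those that are not named in the reference of gene names. The summed level was 1232 and 1275 CPM in the overexpressing libraries and 1447 and 1618 CPM in the controls, and DNMT3B, the highest in CPM, stood at 1034 and 1005 CPM against 694 and 996 CPM and shares 180 of 10798 exon bases with MAPRE1. NANOG, a defining gene, was close to the floor, with 8, 11, 5 and 9 counts in overexpressing replicates 1 and 3 and control replicates 6 and 8. Of the 4 tested, LIN28A and CDH1 were called lower (against 10.6% of all tested genes). LIN28A stood at 164 and 186 CPM against 506 and 382 CPM, and CDH1 at 25.4 and 73.9 CPM against 240.1 and 232 CPM, with a log2 fold change of -2.25 that was -3.22 without overexpressing replicate 3.

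Of 10 neural markers with an identifier, 9 were tested and 5 were called higher (against 8.61% of all tested genes), and the summed level was 783 and 386 CPM in the overexpressing libraries and 186 and 213 CPM in the controls. STMN2 had the highest mean CPM over the 4 libraries, though not the highest in each, at 327 and 155 CPM against 72.7 and 76.2 CPM, and its log2 fold change of 1.69 was 1.06 without overexpressing replicate 1. TUBB3 stood at 351 and 117 CPM against 6.20 and 10.6 CPM (log2 fold change 4.80, and 3.81 without overexpressing replicate 1). NEUROG2 was at least 15.9-fold higher against a floor of 3 counts in each control, where it had none, and NEUROG1 had 117 and 127 counts against 1 in each control. ISL1 was called higher at 2.41. MAP2 lay the other way, at 55.7 and 78.1 CPM against 96.1 and 115 CPM, and passed on its p but not on its size (log2 fold change -0.66, adjusted p = 0.0375 in edgeR). PAX6, with 12 and 3 counts against 11 and 17, was lower in CPM in both overexpressing libraries and was not called.

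Fibroblast markers, the genes of the starting cells and of feeders, summed to 1235 and 979 CPM in the overexpressing libraries and 1324 and 1191 CPM in the controls, mostly through VIM, the highest in CPM. Of 6 tested from 12 with an identifier, COL1A2 and PRRX1 were called higher and COL1A1, DCN and PDGFRB lower (against 8.61% and 10.6% of all tested genes), and COL5A1, COL6A3 and LUM were at 3 counts or fewer in every library. PDGFRB stood at 1.13 and 2.98 CPM against 126 and 55.9 CPM, with a log2 fold change of -5.49, -6.32 without overexpressing replicate 3 and -4.79 without control replicate 6. COL1A2 went from 1.08 to 0.64 without overexpressing replicate 1 and to 0.78 without control replicate 8, and was then no longer called. DCN had 3 and 1 counts against 19 in each control. Endoderm markers summed to 83.8 and 106 CPM against 143 and 136 CPM, with GATA6 the highest in mean CPM over the 4 libraries and CXCR4 above it in both controls. Of 5 tested, where 10.6% of all tested genes were called lower, APOA1 and CXCR4 were (log2 fold changes -2.55 and -1.42, the first -3.40 without overexpressing replicate 3). FOXA1 lay the other way, at 25.1 and 20.0 CPM against 15.4 and 11.5 CPM, and passed on its p but not on its size (log2 fold change 0.75, adjusted p = 0.045 in edgeR), and FOXA2, AFP and CER1 had no count in any library. Mitochondrial genes took 8.62% and 7.57% of counts with overexpression and 6.29% and 6.68% without. The part of these markers and of the mitochondrial share in the BMP pathway results was not tested.

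**Figure D2:**
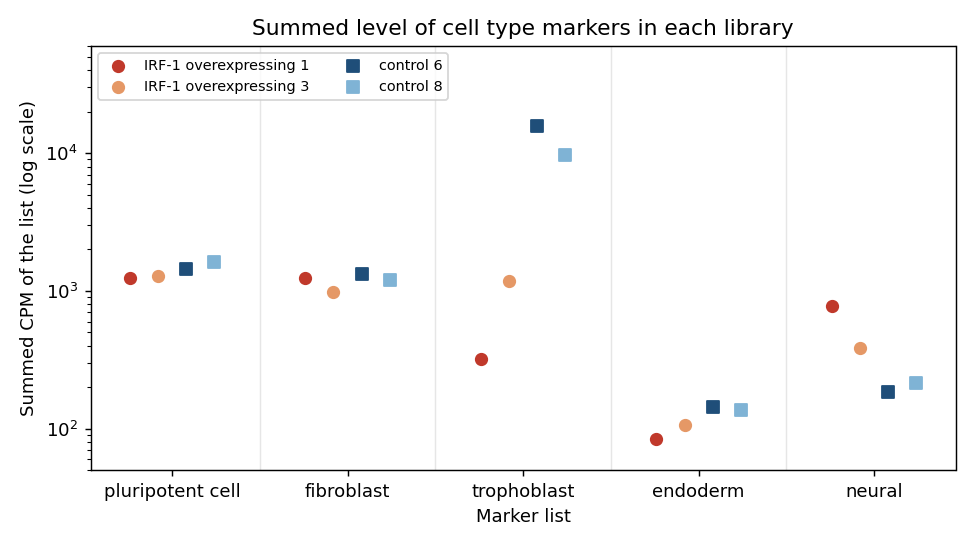
Summed CPM of the 5 marker lists on a log axis, with 1 point per library (circles for IRF-1 overexpressing replicates 1 and 3, squares for control replicates 6 and 8). The trophoblast list, which is mostly KRT8 and KRT18, goes from 319 and 1173 CPM in the circles to 15682 and 9620 CPM in the squares, while the neural list is higher in the circles.

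Secreted antagonists bind BMPs or their relatives and keep them from receptors. Of 16 listed, 15 had an identifier, 10 were tested and 4 were called lower (against 10.6% of all tested genes), and the median log2 fold change was -0.95 (-0.36 if control replicate 6 is left out). CHRD (ENSSSCG00000025270), which encodes chordin, the antagonist of the embryonic organizer, had 70 and 102 counts against 811 and 430. The overexpressing libraries lay far below both controls. CHRD fell by 3.31 on the log2 scale (SE 0.42, adjusted p = 0.00138 in edgeR), and leaving out control replicate 6 gave -2.68. FST (ENSSSCG00000016892), encoding follistatin, which traps activin and some BMPs, stood at 39.5 and 94.4 CPM against 343 and 250.3 CPM. It fell by 2.15 on the log2 scale (SE 0.37, adjusted p = 0.00497 in edgeR), and leaving out overexpressing replicate 3 gave -2.91.

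FSTL1, a relative of follistatin, stood at 480.0 and 535 CPM against 1019 and 1146 CPM, and FSTL3 at 2.70 and 2.74 CPM against 13.0 and 8.51 CPM. Both were called lower, with log2 fold changes of -1.09 and -1.98. NOG, which encodes noggin, had few counts, at 49 and 35 against 23 and 26, and was not called (log2 fold change 0.31, adjusted p = 0.613 in edgeR). GREM1 had 15 and 24 counts against 92 and 21. Its log2 fold change of -2.01 passed on its size but not on its p (adjusted p = 0.0827 in edgeR). The size rested on control replicate 6, since it was -0.46 without that library. Without control replicate 8 it was -2.75 and GREM1 was called. It was also called in DESeq2 and with no filter on low counts. NBL1 stood at 14.8 and 19.1 CPM against 39.1 and 20.1 CPM and was called, at -1.20, without control replicate 8. TWSG1, CHRDL1 and BMPER were not called, and CHRDL2, CER1 and SOST had no count in any library.

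Among 9 tested inhibitors that act inside the cell or in its membrane, 2 were called higher and 2 lower (against 8.61% and 10.6% of all tested genes), with a median log2 fold change of -0.22. BAMBI (ENSSSCG00000011014), a decoy receptor that is itself switched on by BMP, had 629 and 536 counts with overexpression and 181 and 225 without. The replicates of each group lay close together at 25.3 and 25.8 CPM against 11.6 and 12.9 CPM, and BAMBI rose with a log2 fold change of 1.06 (SE 0.19, adjusted p = 0.00555 in edgeR). The value was 0.99, just under the limit, without control replicate 6. SKIL, a repressor that binds SMAD complexes, stood at 66.3 and 39.4 CPM against 20.9 and 26.2 CPM, with a log2 fold change of 1.16 (adjusted p = 0.0137 in edgeR) that was 0.74 and no longer called without overexpressing replicate 1. Its relative SKI went the opposite way, at 93.8 and 113 CPM against 185 and 187 CPM, and passed on its p but not on its size (log2 fold change -0.85, adjusted p = 0.0052 in edgeR). Without overexpressing replicate 1, the value of SKI was -0.72 and it no longer passed on its p.

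SMURF1, which marks SMAD1 and SMAD5 for breakdown, had 169 and 162 counts against 405 and 229. It was called lower (log2 fold change -1.42, adjusted p = 0.0172 in edgeR). The call was lost without overexpressing replicate 1 (-1.32) or control replicate 6 (-0.84). TOB1 was called lower at -1.02 on account of 135 CPM in control replicate 6, where the other libraries had 49.6, 50.4 and 68.3 CPM, and the value was -0.45 without that library. The call of TOB1 was also lost without overexpressing replicate 1 (-1.01) or replicate 3 (-1.04), and in limma-voom. The inhibitory SMADs, feedback genes of BMP and TGF-beta signaling, differed in sign and neither was called. SMAD6 had 34 and 53 counts against 83 and 64 (log2 fold change -1.20, SE 0.43, adjusted p = 0.076 in edgeR), and SMAD7 had 211 and 234 against 104 and 50 (1.06, SE 0.41, adjusted p = 0.0948 in edgeR). SMAD7 passed at 1.78 without control replicate 6, and both genes passed with no filter on low counts. PPM1A, a phosphatase of SMADs, was nearly equal in the groups at 44.4 and 46.2 CPM against 44.5 and 46.0 CPM, and SMURF2 was not called.

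Proteases free the mature ligand from its precursor or cut chordin away from it. Of 6 tested, 3 were called lower (against 10.6% of all tested genes), with a median log2 fold change of -1.31. BMP1, which despite its name is a protease that cleaves chordin, stood at 6.60 and 10.1 CPM against 23.5 and 22.9 CPM, with a log2 fold change of -1.48 (SE 0.25, adjusted p = 0.00472 in edgeR). Its relatives were thinly counted, with 7 and 14 counts against 47 and 52 for TLL1 and 6 and 15 against 30 and 28 for TLL2. TLL1 had a log2 fold change of -2.66, -3.38 without overexpressing replicate 3, and -2.14 and not called without replicate 1. TLL2 had -1.89 and -2.83 without overexpressing replicate 3, and lost its call without overexpressing replicate 1 (-1.27), control replicate 6 (-1.76) or control replicate 8 (-2.01), and in DESeq2. PCSK6 passed on its p at -0.99, just short of the limit, and was past it without overexpressing replicate 3 (-1.05) or control replicate 8 (-1.09). The value was -0.88 without control replicate 6, and -0.93 without overexpressing replicate 1, where PCSK6 no longer passed on its p. FURIN was at 88 and 43 counts against 137 and 66. Its log2 fold change of -1.15 passed on its size but not on its p (adjusted p = 0.115 in edgeR). The value was -1.63, and called, without control replicate 8 and -0.42 without control replicate 6. FURIN was also called with no filter on low counts. PCSK5 was not called.

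The E proteins are the partners that ID proteins sequester. TCF3 stood at 215 and 220.2 CPM in the overexpressing libraries against 175 and 185 CPM, TCF4 at 57.0 and 45.2 CPM against 39.6 and 34.4 CPM, and TCF12 at 97.6 and 97.5 CPM against 100.4 and 112 CPM. Both overexpressing libraries lay above both controls for TCF3 and TCF4 and below both for TCF12, as they did for 34.8% and 33.8% of all tested genes. None was called, and their log2 fold changes lay between -0.12 and 0.47 with adjusted p between 0.0852 and 0.554 in edgeR. TCF4 shares 166 of 7547 exon bases with an unnamed gene that had at most 1 count.

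Over the 8 pathway lists together, 63 of 81 genes with an identifier were tested, 5 were called higher and 22 lower, where 8.61% and 10.6% of all tested genes were, and the median log2 fold change was -0.27. Under glmTreat 15 of these 27 calls were kept, while over all tested genes the 1141 higher and 1410 lower calls became 611 and 603. Those that did not pass were SMAD1, BAMBI, SKIL and HEY1 among the higher genes, and RGMA, FSTL1, BMP1, SMURF1, TOB1, TLL2, ATOH8 and MSX2 among the lower ones. Of the 5 genes called higher, BMP6 was the 1 that passed. ID2, ID3, ID4, MSX1, CHRD, FST, ACVRL1, BMP2, BMP5, GDF6, GDF15, FSTL3 and BMP6 kept their call under glmTreat and with any 1 library left out. How many of all tested genes did so was not counted.

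**Figure D3:**
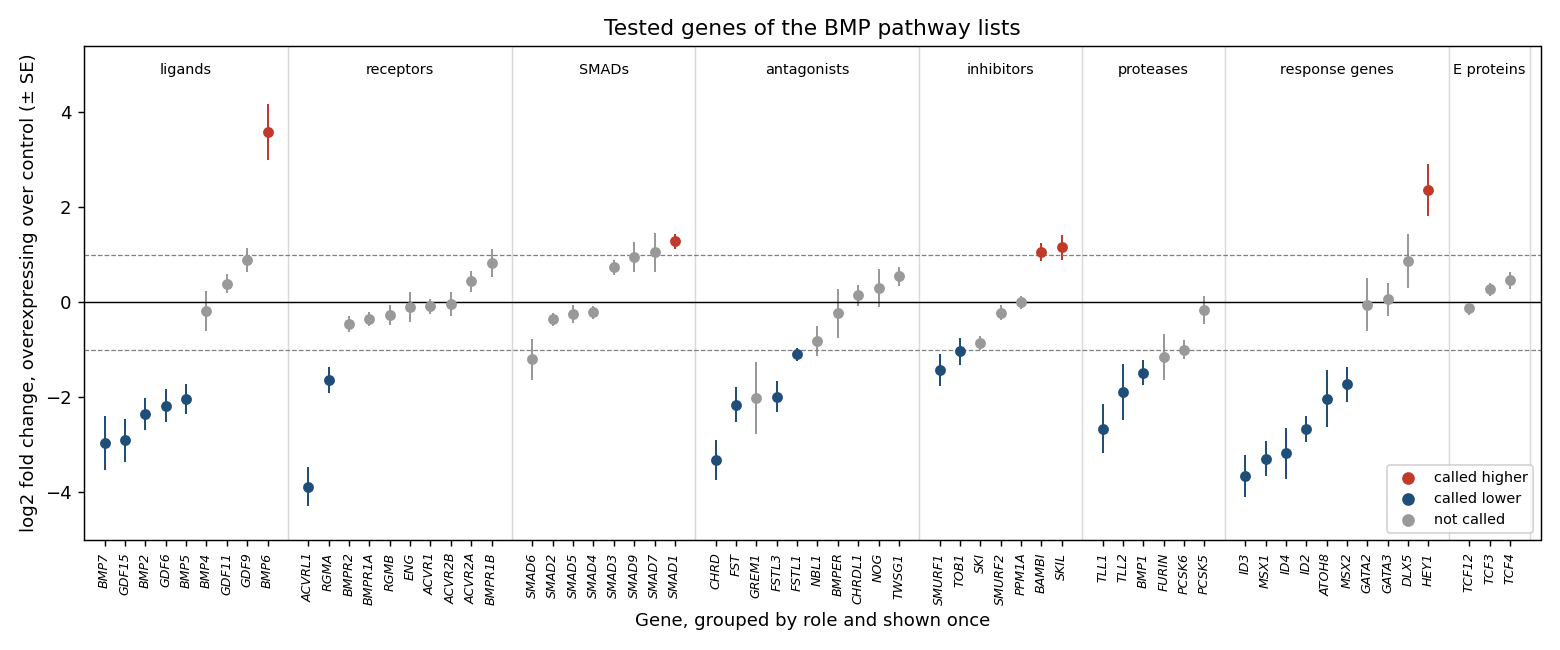
Fitted log2 fold change (IRF-1 overexpressing over control) with its standard error for the 63 tested genes of the 8 BMP pathway lists, each shown once under the first list that holds it, with red for called higher, blue for called lower, gray for not called, and dashed lines at 1 and -1. SMAD1 at 1.29 is the red point among the SMAD genes, and ID3 at -3.65 is the lowest point among the response genes.

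Levels of different genes can be compared only per length, as CPM per kb of exon. In the control cells ID3 led the members at 194 ± 84.4 CPM per kb (SD, n = 2), followed by ID2 at 15.4 ± 3.91, BMPR1A at 8.74 ± 0.283, SMAD1 at 5.36 ± 0.122, BMPR2 at 4.05 ± 0.232, SMAD5 at 3.45 ± 0.565 and BMP2 at 3.03 ± 0.409. BMP4 at 1.26 ± 0.73 and BMP7 at 0.89 ± 0.011 came after them, and ID1 was last. BMPR2 and SMAD5, SMAD5 and BMP2, and BMP4 and BMP7 are the neighbors in this order whose means lie within their joint SDs. In the overexpressing cells ID3 at 15.5 ± 8.84 CPM per kb and SMAD1 at 13.1 ± 0.592 (SD, n = 2) led and did not differ beyond their spread. BMPR1A followed at 6.90 ± 0.643, and then BMPR2 at 2.96 ± 0.338, SMAD5 at 2.93 ± 0.285 and ID2 at 2.45 ± 0.721, in which each overlapped the next. BMP4 at 1.11 ± 0.0339, BMP2 at 0.597 ± 0.0238 and BMP7 at 0.116 ± 0.084 were lower, each beyond its spread, and ID1 had no count. SMAD1 thus stood below ID2 and BMPR1A in the control cells and above both in the overexpressing cells, and BMP4 was the most abundant of the 3 ligand members in the overexpressing cells while BMP2 was in the controls.

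The genes whose levels followed SMAD1 most closely over the 4 libraries were sought by the Euclidean distance of centered log2 CPM values, in the 9128 genes that have a symbol and average 5 CPM or more. The nearest was GMDS (ENSSSCG00000000994), an enzyme of GDP-fucose synthesis, at a distance of 0.0487, with 68.8 and 66.4 CPM in overexpressing replicates 1 and 3 and 27.8 and 27.5 CPM in the controls. ECI2, an enzyme of fatty acid oxidation, followed at a distance of 0.0506 with 184 and 164 CPM against 71.3 and 73.5 CPM, and ZNF75D, a zinc finger gene, at 0.0531 with 80.9 and 75.5 CPM against 30.3 and 31.7 CPM. Since they were chosen by this distance over the same 4 libraries, their log2 fold changes of 1.29, 1.26 and 1.34 had to be near that of SMAD1. Like SMAD1 they were called in edgeR but did not pass glmTreat, which follows from the same choice and is no further likeness. ECI2 shares 277 of its 2364 exon bases with an unnamed gene on the opposite strand that had at most 11 counts.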

How the data were processed

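The counts deposited by the authors are integers for each Ensembl gene, neither normalized nor pooled, with each gene's exon length in bases. Per the methods and the submitters' processing notes, reads were filtered with trim_galore, mapped to Sus scrofa 11.1 with HISAT2 (2.0.4) and counted with featureCounts (1.6.4); htseq-count is named too. Annotation release and strand setting are not given in the sources used here. Symbols for 14692 of 24358 identifiers came from a reference table of gene names.

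Counts were analyzed with edgeR 4.0.16 in R 4.3.3 (TMM, filterByExpr by group, quasi-likelihood test, Benjamini-Hochberg adjustment). The standard error is the log2 fold change divided by the square root of F. Distances to SMAD1 used log2 of CPM plus 0.5. The edgeR fit was run on simulated counts in which all genes had the same underlying spread. That setting is simpler than the data, so it does not bear on single results here. Alternatives were DESeq2 1.42.0, limma-voom (limma 3.58.1), glmTreat, other normalizations, filters and thresholds, and each library left out. The members and gene lists, the latter written from general knowledge, were chosen with earlier results of these data known. Named genes are the members, IRF1, pathway genes, the marker genes called, highest in mean CPM or at the floor, and the 3 nearest to SMAD1; BCL2L1 and other genes sharing exon bases with these, NANOG, MAP2, PAX6 and FOXA1 fall outside this rule and were added after their values were seen. The 4 ChIP-Seq libraries were not analyzed here.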

Additional observations from a re-analysis of the deposited data

How the results depend on the processing

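SMAD1 stayed positive in 14 of 14 alternatives, with a log2 fold change between 1.25 and 1.33, and was called in all but glmTreat (1.29, adjusted p = 0.116, with a range of 2.73e-08 to 0.116 over the alternatives). In glmTreat, whose construction asks for a change beyond the limit, the members called higher numbered 0 and those called lower 4. All genes called were then 611 higher and 603 lower, and pathway genes 1 higher and 14 lower. At an unadjusted p under 0.05 in glmTreat, 1 member was higher and 4 were lower. The count over all genes by that rule was not made, so these numbers cannot be set against a background and nothing is concluded from them. DESeq2 and limma-voom also called 1 member higher and 4 lower. Over all genes, DESeq2 called 1096 higher and 1316 lower, and limma-voom 1113 and 1392. With no fold minimum, 1842 genes were higher. Other normalizations kept the median of all genes between -0.0088 and -0.00038 and moved no call among the pathway genes. Among the marker genes, LIN28A, CXCR4, STMN2 and COL1A2 each lost their call in 1 alternative other than leaving out a library.

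With each library left out in turn, where the lone library is assumed to vary like the other group, the members called lower were 3 to 4, all genes called higher 733 to 1124 and lower 787 to 1500, pathway genes called higher 3 to 7 and lower 15 to 24, and the pathway median -0.46 to -0.25. The lowest counts came without overexpressing replicate 1, and the cause was not tested. The difference in the SMAD1 to SMAD5 log2 ratio was 1.33 to 1.71, and 1.49 against SMAD4. No result changed direction past the threshold. No paired analysis was possible because the groups share no replicate number. With 2 libraries a group and genes such as BMP7, TLL1, TLL2 and ATOH8 at low counts, single libraries weigh heavily on these estimates. Differences as small as those of BMP4, BMPR1A, BMPR2 and SMAD5 lie under the fold limit of 1 and could not be called by the rule.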
